A study of Homo sapiens with 6 samples.

Results

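The 10 genes described here form the core of canonical NF-kB signalling. They are the subunit genes NFKB1, RELA and REL and the inhibitor genes NFKBIA, NFKBIB, NFKBIE and TNFAIP3. The others are NFKBIZ, the gene of an atypical member of the IkB inhibitor family, and the kinase genes IKBKB and CHUK. All were taken by gene name. Each name was found once among the 60843 genes of the deposited table, and all 10 passed the filter on low values (mean over the 6 libraries 0.5 FPKM or more), which left 14791 genes for testing. FPKM is a read number scaled for the length of the gene and the size of the library, so levels of different genes can be set side by side. RNA sequencing was done on cells of the human liposarcoma line SW872-S, with 3 libraries in each of 2 groups. Every library is labelled SW872-S, but the design text mentions different cell sources and does not define them. If those followed the groups, they cannot be told apart from the effect of the plasmid. The TP53INP2_OE group carried a plasmid for overexpression of TP53INP2, a gene whose protein takes part in autophagosome formation, and the NC group was its negative control. The labels give no time after transfection, no agent that stimulates NF-kB, no description of what the control cells carried, and no word on whether the replicates were grown apart, so p-values rest on a spread among libraries that may be technical. The comparison addresses how raised TP53INP2 changes the RNA of liposarcoma cells.

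In resting cells, dimers of NF-kB proteins, most often p50 (from NFKB1) with p65 (from RELA), are held in the cytoplasm by inhibitors of the IkB family. The IkB kinase, built from IKKalpha (CHUK), IKKbeta (IKBKB) and the scaffold NEMO (IKBKG), phosphorylates the inhibitors, which are then degraded, and the dimers enter the nucleus. Several inhibitor genes are themselves NF-kB targets, so the pathway writes its own brakes. Control of the pathway is largely at the level of protein modification and location, which RNA levels do not measure.

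RefSeq promoter windows, from 250 bases before to 50 bases after a transcription start (build GRCh38.p14), were on hand for 8 of the 10 genes, and the kB consensus, a decamer searched on both strands, was found for 6 of these 8: NFKB1, REL, NFKBIA, NFKBIB, NFKBIZ and TNFAIP3. Of all 35116 windows of the same length, 5.9% held a match, and of all 27305 genes with a window, 7.1% did. The looser pattern GGGNNNNNCC, which contains every consensus match, was in 58.7% of windows. The windows of RELA and CHUK held no consensus match. Up to 250 bases before the RefSeq start, ending before the gene start of the deposited table, are shown for the 2 members that rose with TP53INP2 and stayed past the threshold after a correction for base composition (TNFAIP3 and NFKBIZ) and for 2 that did not pass (NFKBIA and NFKB1). They are written 5′ to 3′ on the coding strand, with consensus matches in capitals.
TNFAIP3, chr6:137867009-137867213, plus strand: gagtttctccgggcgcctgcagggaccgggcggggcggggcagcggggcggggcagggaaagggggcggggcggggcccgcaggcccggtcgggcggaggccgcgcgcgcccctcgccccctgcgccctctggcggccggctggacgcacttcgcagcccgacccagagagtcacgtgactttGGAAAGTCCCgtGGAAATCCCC
NFKBIZ, chr3:101827740-101827989, plus strand: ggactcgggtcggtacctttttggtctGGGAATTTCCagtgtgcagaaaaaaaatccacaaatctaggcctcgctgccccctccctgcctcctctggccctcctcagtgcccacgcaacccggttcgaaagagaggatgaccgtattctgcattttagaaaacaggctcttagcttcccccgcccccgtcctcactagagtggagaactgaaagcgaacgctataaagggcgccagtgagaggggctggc
NFKBIA, chr14:35404750-35404999, minus strand: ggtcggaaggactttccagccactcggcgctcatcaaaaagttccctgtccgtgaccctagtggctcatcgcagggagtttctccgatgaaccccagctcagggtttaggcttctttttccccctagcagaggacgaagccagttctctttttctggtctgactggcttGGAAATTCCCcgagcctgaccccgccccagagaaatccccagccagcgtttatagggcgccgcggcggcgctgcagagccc
NFKB1, chr4:102501109-102501330, plus strand: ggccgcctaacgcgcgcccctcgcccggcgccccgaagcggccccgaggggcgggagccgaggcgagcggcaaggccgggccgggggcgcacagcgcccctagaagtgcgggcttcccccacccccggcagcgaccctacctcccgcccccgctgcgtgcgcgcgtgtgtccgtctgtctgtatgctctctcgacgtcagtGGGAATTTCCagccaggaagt
TNFAIP3 held 2 matches on the opposite strand, GGGACTTTCC from -67 to -58 and GGGGATTTCC from -55 to -46, counted from the RefSeq start. The decamer GGGAATTTCC stood in NFKBIZ from -223 to -214, in NFKB1 from -49 to -40 and, on the opposite strand, in NFKBIA from -81 to -72. The window of a second NFKBIZ start held another match, GGGGTTTCCC, which fits the consensus when read on either strand. In REL and NFKBIB the 2 matches lay on opposite strands and overlapped. A match was therefore present in genes that rose, in genes that did not pass and in NFKBIB, which fell. Binding was not measured.

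The libraries held between 16038062 and 17607612 reads assigned to genes. TP53INP2 itself rose from 9.92 ± 0.64 to 23.1 ± 4.09 FPKM (SD, n = 3 each), with no overlap between groups. The labelled cell type was compared with defining markers: VIM and FN1 were the highest of 6 mesenchymal markers, at 719 to 782 and 538 to 644 FPKM, while COL1A2 and THY1 were at most 0.017 and 0.21. No leukocyte marker of 5 exceeded 0.168 FPKM in any library, and their sum was 0.073 to 0.312 FPKM in NC and 0.0715 to 0.179 in TP53INP2_OE. Of 4 epithelial markers only CLDN4 had a mean of 0.5 FPKM or more (0.86). Their sum was 0.990 to 1.27 FPKM in NC and 0.920 to 1.19 in TP53INP2_OE. The 3 endothelial markers summed to 34.5 to 39.2 FPKM in NC and 32.0 to 33.4 in TP53INP2_OE, most of it CDH5. Across 11270 tested protein-coding genes, the log2 fold change followed the GC content of the longest transcript (Spearman's rho -0.783 across genes, which share the 6 libraries and are not replicates). Genes rich in G and C tended to be lower and genes rich in A and T higher in TP53INP2_OE. The results below are therefore also given corrected, that is, after the trend with GC content and gene length was subtracted from every library. A change that follows GC content for a biological reason is removed by that step too, and whether the trend arose in the cells or in library preparation was not tested.

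Of the 10 NF-kB genes, TNFAIP3, NFKBIZ and CHUK rose with TP53INP2, NFKBIB and NFKBIE fell, and NFKB1, RELA, REL, NFKBIA and IKBKB did not pass the threshold (limma, adjusted p below 0.05 over all tested genes). So 5 of 10 members passed, where 35.0% of all tested genes did, 16.4% upward and 18.6% downward. After the correction, 2 of 10 passed, TNFAIP3 and NFKBIZ, both upward, where 10.4% of genes passed, 4.53% upward and 5.88% downward. The libraries of the groups did not overlap for 7 of 10 members, 4 higher and 3 lower, against 50.8% of all tested genes (25.2% higher and 25.6% lower). The median log2 fold change of the members was -0.074, and 0.003 over all tested genes. RNA from all cells of a culture was pooled, so a change in each cell cannot be told apart from a change in the number of cells that express a gene.

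**Figure D1:**
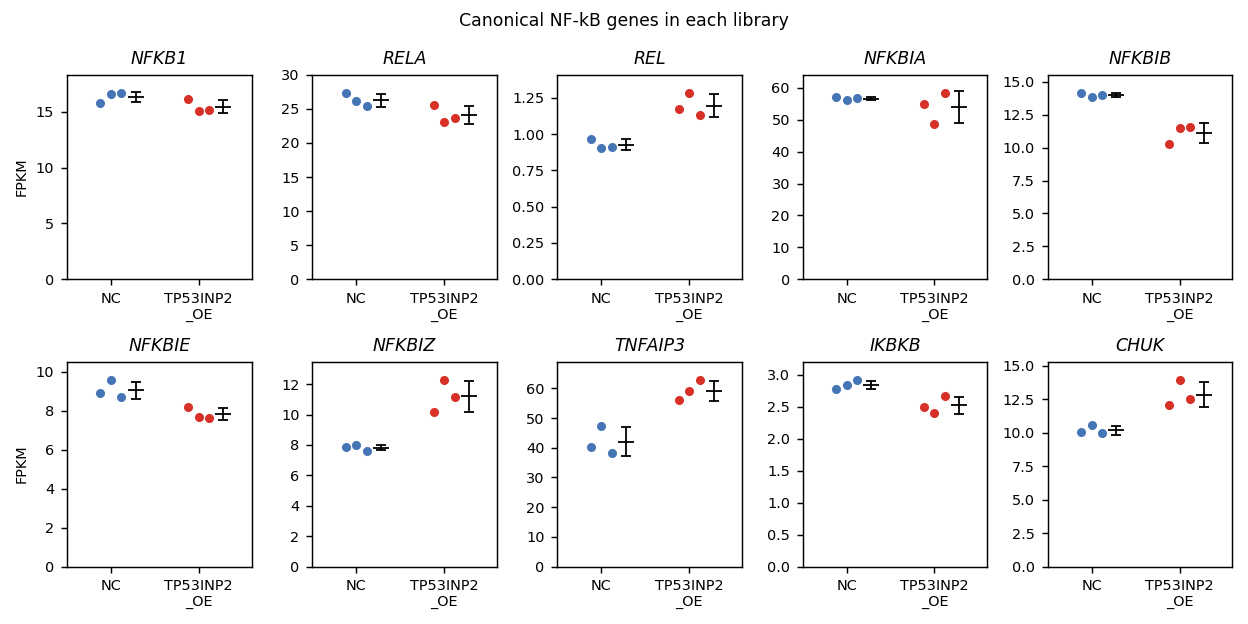
FPKM (y axes, from 0) of the 10 NF-kB genes in each NC library (blue) and each TP53INP2_OE library (red), with the mean and SD of 3 libraries beside the points. The TP53INP2_OE points lie above all NC points for REL, NFKBIZ, TNFAIP3 and CHUK, below them for NFKBIB, NFKBIE and IKBKB, and overlap with them for NFKB1, RELA and NFKBIA.

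In NC cells the most abundant of the 10 was NFKBIA, at 56.6 FPKM, followed by TNFAIP3 (42.0), RELA (26.3), NFKB1 (16.4), NFKBIB (14.0), CHUK (10.18), NFKBIE (9.04), NFKBIZ (7.83), IKBKB (2.84) and REL (0.927). No neighbours in this order overlapped over the 3 NC libraries. In TP53INP2_OE cells TNFAIP3 stood first at 59.2 FPKM, and its 3 values (56.0 to 62.7) overlapped those of NFKBIA (48.6 to 58.4). NFKBIZ went from the eighth place to the sixth, between CHUK and NFKBIB, and overlapped both. The gene lengths that the authors divided by were long for IKBKB (11241 bases) and REL (13170 bases), which lowers their FPKM if the expressed transcripts are shorter.

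Among the subunits, RELA encodes p65, a subunit that carries a transactivation domain (chromosome 11, 65653597 to 65663090, minus strand). Its values were 27.3, 26.2 and 25.4 FPKM in NC and 25.6, 23.1 and 23.7 in TP53INP2_OE. TP53INP2_OE replicate 1 lay within the NC range and the other two TP53INP2_OE libraries below it. The log2 fold change was -0.12 (SE 0.05, 95% interval -0.24 to -7.4e-05, adjusted p = 0.110 by limma). RELA passed, downward, without TP53INP2_OE replicate 1 (adjusted p = 0.0438), whereas after the correction it was 0.072 (adjusted p = 0.230), with the sign turned.

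NFKB1, which encodes the precursor p105 of the p50 subunit (chromosome 4, 102501331 to 102617302, plus strand), was measured at 15.8, 16.6 and 16.7 FPKM in NC and at 16.1, 15.1 and 15.2 in TP53INP2_OE. Its groups overlapped. The log2 fold change of -0.076 had a 95% interval of -0.18 to 0.025 (adjusted p = 0.209 by limma). After the correction it was -0.048 (95% interval -0.14 to 0.043).

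REL encodes c-Rel, a subunit best known from lymphoid cells (chromosome 2, 60881521 to 60931610, plus strand), and it was the least abundant member. Its values were 0.969, 0.905 and 0.908 FPKM in NC and 1.17, 1.28 and 1.13 in TP53INP2_OE, resting on 208 to 290 reads per library. Every TP53INP2_OE library was higher than every NC library, with a ratio of means of 1.29. The log2 fold change on the log2(FPKM + 1) scale was 0.19 (adjusted p = 0.130 by limma), a scale that understates the change of a gene at this level. On the reads themselves (limma voom) the log2 fold change was 0.37 and passed (adjusted p = 0.00737). After the correction it was -0.020 (95% interval -0.21 to 0.17), and 38.7% of the bases of its longest transcript are G or C. The correction took 0.21 from REL on the log2(FPKM + 1) scale. That trend was fitted over genes of all levels, so it may take too much from a gene this low. A correction of the voom value was not tested.

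Of the classical inhibitors, NFKBIA encodes IkBalpha, the fast feedback inhibitor that NF-kB induces (chromosome 14, 35401511 to 35404749, minus strand). It stood at 57.1, 56.1 and 56.7 FPKM in NC, a spread of 0.53 (SD), and at 55.1, 48.6 and 58.4 in TP53INP2_OE, with an SD of 5.00. TP53INP2_OE replicate 2 was the lowest and TP53INP2_OE replicate 3 the highest of all 6 libraries, so the groups overlapped. The log2 fold change was -0.071 (95% interval -0.23 to 0.085, adjusted p = 0.442 by limma), and the sign turned without TP53INP2_OE replicate 2 (0.0019) and after the correction (0.042, 95% interval -0.093 to 0.18).

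NFKBIB, the gene of IkBbeta (chromosome 19, 38899700 to 38908893, plus strand), had 14.2, 13.9 and 14.0 FPKM in NC and 10.3, 11.5 and 11.6 in TP53INP2_OE. All TP53INP2_OE libraries lay below all NC libraries, and the ratio of means was 0.794. It fell by 0.31 on the log2 scale (SE 0.05, adjusted p = 0.00628 by limma). After the correction the log2 fold change was -0.041 (adjusted p = 0.748). Its longest transcript has a GC content of 60.5%. Its first 163 bases overlap SIRT2 on the opposite strand (6.37 to 7.80 FPKM), and a strand setting was not given in the sources used here.

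NFKBIE, the gene of IkBepsilon (chromosome 6, 44258166 to 44265788, minus strand), had 8.89, 9.54 and 8.70 FPKM in NC and 8.16, 7.65 and 7.60 in TP53INP2_OE, again with no overlap. It fell by 0.19 on the log2 scale (SE 0.05, adjusted p = 0.0285 by limma). This call was lost without NC replicate 1 (0.0705), NC replicate 2 (0.0910), TP53INP2_OE replicate 2 (0.0758) or TP53INP2_OE replicate 3 (0.0827), with no filter on low values (0.0590), and with voom (0.0662). After the correction the sign turned (GC content 61.0%), to 0.086 (adjusted p = 0.288).

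The 2 feedback genes that rose both before and after the correction were TNFAIP3 and NFKBIZ, whose promoters with their consensus matches are printed above. TNFAIP3 encodes A20, a ubiquitin-editing enzyme that shuts down signalling upstream of the IkB kinase (chromosome 6, 137867214 to 137883312, plus strand). It had 40.2, 47.5 and 38.3 FPKM in NC and 56.0, 59.0 and 62.7 in TP53INP2_OE. The highest NC library, replicate 2, stayed below the lowest TP53INP2_OE library. The ratio of means was 1.41 and the log2 fold change 0.49 (SE 0.08, 95% interval 0.29 to 0.69, adjusted p = 0.00653 by limma). After the correction the log2 fold change was 0.51 (adjusted p = 0.0168), the fitted trend amounting to -0.021 at a GC content of 49.5%. Its region overlaps the antisense RNA gene WAKMAR2 over 1020 bases, which stood at 0.514 to 0.800 FPKM.

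NFKBIZ encodes IkBzeta, an atypical nuclear member of the IkB family that is known to work with p50 as a coactivator of genes such as IL6 (chromosome 3, 101827991 to 101861022, plus strand). Its values were 7.84, 8.01 and 7.64 FPKM in NC and 10.17, 12.3 and 11.2 in TP53INP2_OE, with the groups well apart. The ratio of means was 1.43 and the log2 fold change 0.46 (SE 0.07, 95% interval 0.30 to 0.62, adjusted p = 0.00424 by limma). After the correction it was 0.42 (GC content 46.2%) (adjusted p = 0.0166). The gene NXPE3 ends within the first 241 bases of NFKBIZ on the same strand, at 5.06 to 6.21 FPKM. TNFAIP3 and NFKBIZ also passed in each of the 6 fits that left out 1 library.

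**Figure D2:**
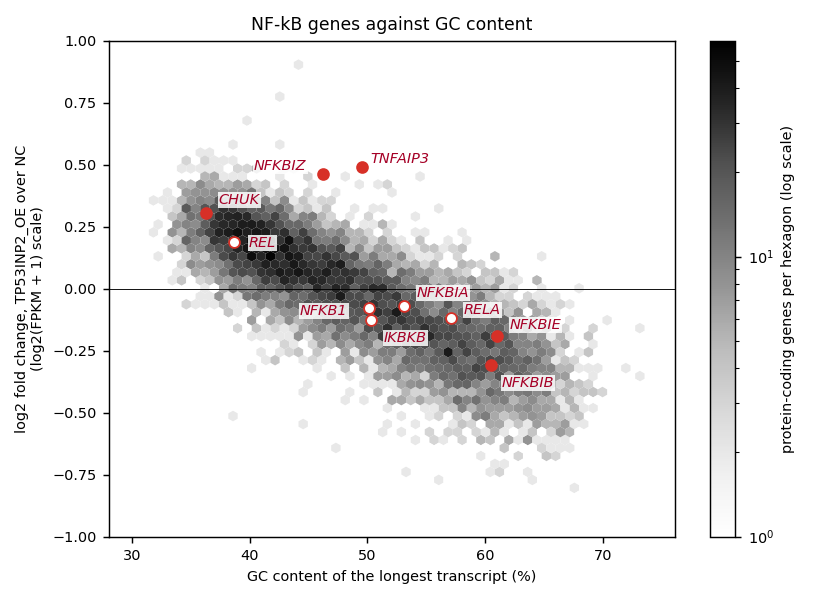
Log2 fold change (y axis, TP53INP2_OE over NC) against GC content of the longest transcript (x axis, percent) for tested protein-coding genes with changes between -1 and 1 (grey, darker where more genes lie) and for the 10 NF-kB genes (red filled where adjusted p was below 0.05, open otherwise). After the GC and length correction, which is not plotted here, TNFAIP3 and NFKBIZ were at 0.51 and 0.42 and the other 8 between -0.10 and 0.089.

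Of the IkB kinase genes, CHUK rose and IKBKB did not pass. CHUK encodes IKKalpha, which serves both the canonical and the noncanonical pathway (chromosome 10, 100188300 to 100229596, minus strand). It had 10.0, 10.6 and 9.95 FPKM in NC and 12.1, 13.9 and 12.5 in TP53INP2_OE, every TP53INP2_OE library above every NC library. It rose by 0.31 on the log2 scale (SE 0.06, adjusted p = 0.00901 by limma). Its GC content of 36.3% was the lowest of the 10, and after the correction the log2 fold change was 0.089 (95% interval -0.017 to 0.19, adjusted p = 0.250).

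IKBKB encodes IKKbeta, the kinase that mainly phosphorylates IkBalpha in the canonical pathway (chromosome 8, 42271302 to 42332653, plus strand). Its values were 2.78, 2.83 and 2.91 FPKM in NC and 2.50, 2.40 and 2.66 in TP53INP2_OE. The groups did not overlap, but the log2 fold change of -0.13 did not pass (SE 0.06, adjusted p = 0.140 by limma). It was -0.10 after the correction, little changed at a GC content of 50.3%.

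**Figure D3:**
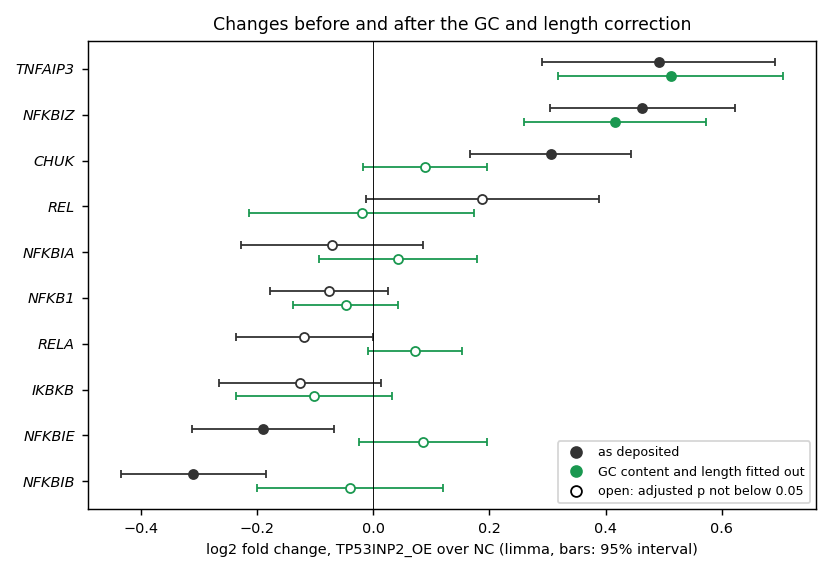
Log2 fold change of each NF-kB gene (x axis, TP53INP2_OE over NC, bars are 95% intervals from limma) as deposited (black) and after the GC and length correction (green), filled where adjusted p was below 0.05. TNFAIP3 and NFKBIZ keep their place, whereas CHUK, NFKBIB and NFKBIE move to intervals that include 0.

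Ratios of FPKM within a library set the members against each other, given as values with no test. The ratio of IKBKB to CHUK was 0.277, 0.268 and 0.293 in NC and 0.206, 0.173 and 0.213 in TP53INP2_OE, so IKKbeta RNA stood lower against IKKalpha RNA in every TP53INP2_OE library. The mean ratio in TP53INP2_OE was 0.706 of that in NC, and 0.849 after the correction, where the groups still did not overlap. REL to RELA was 0.0355, 0.0346 and 0.0357 in NC and 0.0458, 0.0555 and 0.0477 in TP53INP2_OE, or 1.41 times NC. After the correction that relation was 0.924, lower in place of higher, and again the groups did not overlap. This reversal is uncertain, because on the log2(FPKM + 1) scale the correction may take too much from a gene as low as REL. RELA to NFKB1 was 1.61 ± 0.10 and 1.56 ± 0.03 (SD, n = 3 each), with overlap, whereas after the correction it was 1.09 times NC without overlap. NFKBIA to RELA was 2.16 ± 0.07 and 2.24 ± 0.19. The sum of the classical inhibitors NFKBIA, NFKBIB and NFKBIE over the sum of the subunits NFKB1, RELA and REL was 1.83 ± 0.02 in NC and 1.79 ± 0.13 in TP53INP2_OE. Both of these last ratios overlapped between groups with and without the correction.

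**Figure D4:**
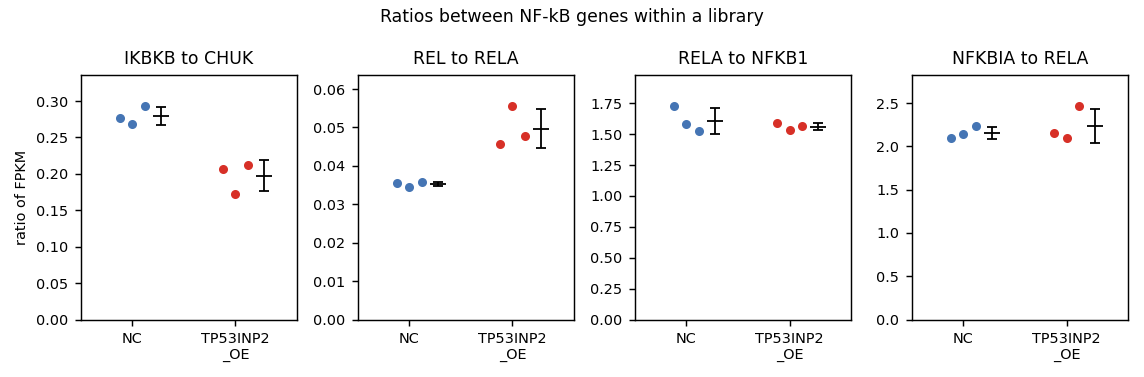
Ratios of FPKM within each library (y axes, from 0) for 4 pairs of NF-kB genes, NC in blue and TP53INP2_OE in red, with the mean and SD of 3 libraries beside the points. Without the correction, as plotted, IKBKB to CHUK is lower and REL to RELA higher in all TP53INP2_OE libraries, and the other pairs overlap. After the correction, which may take too much from a gene as low as REL, REL to RELA is lower.

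Genes that lead from receptors to the IkB kinase split into AT-rich genes that rose and GC-rich genes that fell. Of 20 listed genes, 18 were tested, and 7 rose and 8 fell (83.3% past the threshold, against 35.0% of all tested genes, median log2 fold change -0.070). The 7 that rose had GC contents of 38.0% to 42.8%, and the 8 that fell of 57.5% to 66.9%. RNF31, the catalytic subunit of the linear ubiquitin ligase, was below the filter at 0.207 and 0.379 FPKM, and IRAK4 was not analysed here. BIRC2, the ubiquitin ligase cIAP1, rose by 0.37, from 18.9 ± 0.27 to 24.7 ± 0.43 FPKM. TBK1, an IKK-related kinase, and the TAK1-binding adaptors TAB3 and TAB2 rose by 0.32, 0.29 and 0.29 on the log2 scale. TAB3 lost its call without NC replicate 1 (adjusted p = 0.0578, limma) or NC replicate 2 (0.0516), and TAB2 without NC replicate 1 (0.0506). RBCK1 and SHARPIN, subunits of the linear ubiquitin ligase, fell by 0.55 and 0.40, and the adaptor TRAF2 and the receptor-proximal kinase IRAK1 by 0.47 each. RBCK1 went from 35.6 ± 2.45 to 24.0 ± 0.21 FPKM. IKBKG, the scaffold NEMO, fell by 0.29, from 4.34 ± 0.09 to 3.38 ± 0.36 FPKM. Its reads may be shared with the pseudogene IKBKGP1, so its value is uncertain. After the correction, 1 of the 18 rose (BIRC2, 0.17) and 3 fell (RBCK1 -0.24, TRAF2 -0.20, IRAK1 -0.17), 22.2% against 10.4% of all genes. IKBKG was at 0.00039 (adjusted p = 0.998, limma). Its log2 fold change by voom, without the correction, was -0.36, so the corrected value of this low gene is uncertain. TBK1 (0.12), TAB3 (0.091), TAB2 (0.11) and SHARPIN (-0.069) no longer passed. Without NC replicate 1, 4 rose and 6 fell before the correction, where 22.1% of all genes passed, 9.87% upward and 12.3% downward.

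Among the other family members and brakes, 15 of 16 listed genes were tested, and 4 rose and 6 fell (66.7% past the threshold, against 35.0% of all tested genes, 16.4% upward and 18.6% downward, with a median of -0.008). The 4 that rose had GC contents of 39.1% to 48.0%, and the 6 that fell of 48.8% to 67.4%. TNIP3 was below the filter. TAX1BP1, an adaptor that works with A20, rose by 0.36, from 15.4 ± 0.30 to 20.1 ± 0.85 FPKM, and the ubiquitin ligases RNF11 and ITCH, which are further partners of A20, by 0.27 and 0.26. NKIRAS1, the small GTPase kB-Ras1, rose by 0.22. This call was lost without NC replicate 1 (adjusted p = 0.0699, limma), NC replicate 3 (0.0700), TP53INP2_OE replicate 1 (0.0644) or TP53INP2_OE replicate 3 (0.0663). It was also lost with no filter on low values (0.0623) and with voom (0.0559). COMMD1, which promotes removal of p65 from chromatin, fell from 4.22 ± 0.29 to 2.82 ± 0.04 FPKM, by 0.45 on the log2 scale. BCL3, a nuclear IkB protein, TNIP2, an A20-binding inhibitor, and RELB, the noncanonical partner subunit, fell by 0.44, 0.40 and 0.36. After the correction, TAX1BP1 (0.34) and COMMD1 (-0.43) passed as before, with values close to the uncorrected ones. BCL3 (-0.10), TNIP2 (-0.11), RELB (-0.036), RNF11 (0.14), ITCH (0.055) and NKIRAS1 (0.043) did not pass. TNIP1 (0.20) and ZC3H12A, the RNase regnase-1 (0.27), passed only after it, having been at -0.030 and -0.0083 before (4 of 15, or 26.7%, against 10.4%).

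The target genes of NF-kB did not move one way. Of 33 listed targets, 31 were tested, and 11 rose and 6 fell (54.8% past the threshold, against 35.0% of all tested genes, 16.4% upward and 18.6% downward). Their median log2 fold change was -0.035, against 0.003 over all tested genes. The GC contents were 33.4% to 53.3% for those that rose and 42.6% to 62.0% for those that fell. SELE and PTGS2 were below the filter. CCL20, counted among those that rose, had a mean of 0.425 FPKM in NC and 0.874 in TP53INP2_OE, on 7 to 23 reads per library. It passed the filter only through its TP53INP2_OE values, so its rise is uncertain. Without NC replicate 1, 7 rose and 3 fell, where 22.1% of all genes passed, 9.87% upward and 12.3% downward. Without NC replicate 2, 10 rose and 2 fell, where 24.1% of all genes passed, 10.9% upward and 13.1% downward. IL6, an inflammatory cytokine, had 52.3, 59.3 and 50.5 FPKM in NC and 90.2, 106 and 107 in TP53INP2_OE (ratio of means 1.88, log2 fold change 0.89, SE 0.09, adjusted p = 0.00270 by limma). SOD2, the mitochondrial superoxide dismutase, had 21.4, 24.9 and 22.1 FPKM in NC and 39.0, 42.5 and 42.4 in TP53INP2_OE (ratio of means 1.81, log2 fold change 0.83, adjusted p = 0.00201 by limma). Both genes were far apart between the groups. BCL2A1, a survival protein of the BCL2 family, rose by 0.68 and IL1A, the cytokine interleukin 1 alpha, by 0.46. CCL2, a monocyte chemokine and a standard NF-kB target, went the other way, from 60.7, 48.2 and 62.6 FPKM in NC to 40.2, 39.1 and 35.1 in TP53INP2_OE (log2 fold change -0.57, adjusted p = 0.00813 by limma). GADD45B, a stress-induced regulator of MAP kinase signalling, fell by 0.46. TNFAIP2 fell by 0.28 and BCL2L1, the gene of BCL-XL, by 0.27, calls that each held in only 1 of the 6 fits that left out a library (without TP53INP2_OE replicate 1 for TNFAIP2, without TP53INP2_OE replicate 3 for BCL2L1). In the other fits their adjusted p lay between 0.0513 and 0.114.

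Some of the most abundant targets did not pass. PTX3, a secreted pattern recognition protein, was at 249.0 ± 8.16 and 243 ± 9.09 FPKM, IER3, an immediate early survival gene, at 264 ± 7.58 and 262 ± 10.5, and the chemokine gene CXCL1 at 54.4 ± 1.03 and 53.3 ± 4.75 (SD, n = 3 each, NC and then TP53INP2_OE). These 3 genes were chosen after their values were seen. After the correction, 8 targets rose and 2 fell (32.3% against 10.4% of all genes, 4.53% upward and 5.88% downward). IL6 (0.83), SOD2 (0.67), IL1A (0.29), SDC4 (0.37) and CCL5 (0.40) rose both before and after, and CCL2 (-0.68) and GADD45B (-0.20) fell both before and after. EBI3 (0.58), IER3 (0.22) and MMP9 (0.26) passed only after the correction. Of the 17 targets that passed as deposited, 10 no longer did (adjusted p 0.0536 to 0.991). Of those that had risen, these were BCL2A1 (0.52), IL1B (0.36), CXCL8 (0.26), CCL20 (0.21), BIRC3 (0.12) and CFLAR (0.083). Of those that had fallen, they were IRF1 (-0.12), BCL2L1 (-0.078), ICAM1 (-0.047) and TNFAIP2 (-0.0018). TNFAIP2 was low, at 2.31 FPKM in NC and 1.73 in TP53INP2_OE. Its log2 fold change by voom, without the correction, was -0.42, so its corrected value is uncertain. The kB consensus was found in the promoter windows of 13 of the 27 targets that had one, against 7.1% of all genes with a window. Among the 13 were genes that rose (IL6 and SDC4), that did not pass (CXCL1 and PTX3) and that fell (IRF1). It was also found in 6 of 15 of the other family members and brakes, and in 1 of 18 activating genes.

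**Figure D5:**
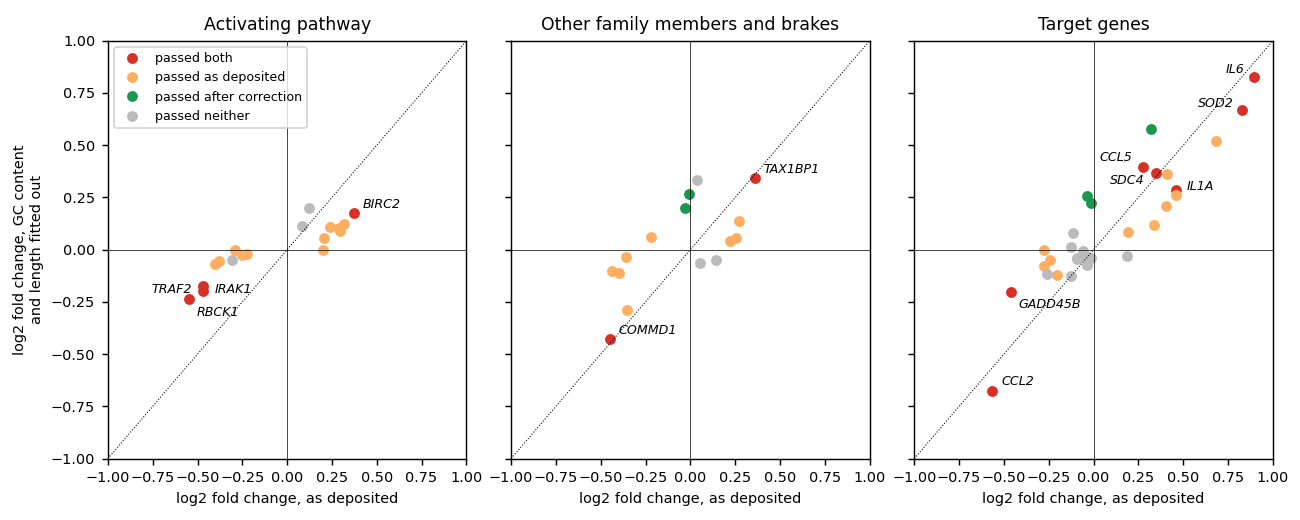
Log2 fold change as deposited (x axis) against log2 fold change after the GC and length correction (y axis) for the tested genes of the activating pathway, of other family members and brakes, and of NF-kB targets. Colours give which of the 2 fits a gene passed (limma, adjusted p below 0.05), genes that passed both are named, and the dotted line marks equal values. The 15 activating genes that passed as deposited lie nearer to 0 on the y axis than on the x axis. Of the genes named in the other panels, IL6, SDC4, TAX1BP1 and COMMD1 lie nearest to the line.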

How the data were processed

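RNA sequencing libraries of SW872-S cells, 3 labelled NC and 3 labelled TP53INP2 OE, were analysed from 1 deposited table. The authors deposited FPKM values for 60843 genes with name, position and length, per the file headers. Bowtie 0.12.2 and 2 builds, mm8 and GRCh38, are listed without a role in the submitters' processing notes. The counting step was not given in the sources used here. Of the gene IDs, 96.2% were in GENCODE release 29 on GRCh38, 92.8% of these with the same start or end. FPKM times gene length gave whole multiples of 1 step per library for 100% of values above 0 (tolerance 0.01), taken as reads. No 2 libraries matched within sampling noise (chi-square per degree of freedom 2.48 to 4.6 within groups).

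Values were taken as log2(FPKM + 1), a scale that understates the change of low genes, and fitted with limma 3.58.1 in R 4.3.3 (empirical Bayes with trend, Benjamini-Hochberg adjustment over all 14791 genes whose mean reached 0.5 FPKM, threshold 0.05), which was tested on simulated data. The simulated libraries had the same spread for all genes, so that test does not show how the fit behaves on the real ones. Adjusted p-values come from this limma fit unless another is named. For the GC and length correction, natural splines with 5 degrees of freedom, on GC content of the longest GENCODE transcript and on log2 length, were fitted to the deviations of each library from the gene means and subtracted. The same trend was taken from genes of all levels, so on the log2(FPKM + 1) scale it may take too much from low genes. GC content was known for 98.4% of tested genes.

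The members, lists and corrections were chosen with earlier results of these data known. Named genes are TP53INP2, the members and, per list, up to 4 of the largest changes past the threshold in each direction. IKBKG, RNF31, IRAK4, TNIP1, TNIP3, ZC3H12A, SDC4, CCL5, IL1B, CXCL8, CCL20, BIRC3, CFLAR, ICAM1, IRF1, EBI3, IER3, MMP9, PTX3, CXCL1, SELE and PTGS2 were named outside it, after their values were seen. SOD2 had 2 IDs, of which the tested one was used.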

Additional observations from a re-analysis of the deposited data

How the results depend on the processing

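Fitting out GC content and length changed these results most. It lowered the number of genes past the threshold from 5183 (35.0%) to 1514 (10.4%), members from 5 to 2, activating genes from 15 to 4, other family genes and brakes from 10 to 4, and targets from 17 to 10. It turned the sign of RELA (0.072), REL (-0.020), NFKBIA (0.042) and NFKBIE (0.086). It moved the TP53INP2_OE to NC quotient of the ratios IKBKB to CHUK (0.849), RELA to NFKB1 (1.09) and REL to RELA (0.924). For REL, a low gene, the correction may be too large on the log2(FPKM + 1) scale, so its turned sign and ratio are uncertain. Fitted together with the replicate block, the correction left 668 genes (4.59%), 2 members, 2 activating genes, 2 brakes and 8 targets, with the same 4 signs turned. Same-numbered libraries did not deviate together (correlations of 0.017, 0.012 and 0.011), and the labels do not pair them. The replicate block alone gave 4396 genes (29.7%) and 4 members, without NFKBIE (adjusted p = 0.0587). With 1 library left out at a time, 3276 (22.1%, without NC replicate 1) to 4779 genes (32.3%, without TP53INP2_OE replicate 1) passed. Of the targets, 10 (32.3%) to 15 (48.4%) passed, lowest and highest in the same fits as all genes. NFKBIA lay between -0.13 (without TP53INP2_OE replicate 3) and 0.0019 (without TP53INP2_OE replicate 2). A pseudocount of 0.1, no filter, quantile normalization and voom kept all 5 counts within 1.5 times. The shares moved more, because 32504 genes were tested with no filter. There 11.2% of all genes passed, 40.0% of members, 63.2% of activating genes, 43.8% of other family genes and brakes and 39.4% of targets. With voom 41.6% of all genes passed. The ratios use no pseudocount, filter or test, so those settings and the block gave no value for them. NFKBIB, NFKBIE, IKBKB and REL rest on at most 583 reads per library, which limits how small a change could be seen.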
